A study of Homo sapiens with 38 samples.

Results

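Transcript levels of 36 genes of homologous recombination, the Fanconi anemia pathway and the DNA damage checkpoint were followed in 3 established breast cancer cell lines treated with degraders or inhibitors of the histone methyltransferase EZH2. The genes were taken as a list of symbols present in all 15 tables of a compound against its vehicle, where 11981 symbols are listed in every table and 24463 in at least 1. Of the 36, 10 act in strand invasion or mediate it (BRCA1, BARD1, PALB2, BRCA2, RAD51C, XRCC2, XRCC3, RAD51AP1, RAD54L and RAD54B), and 7 act in end resection and joint processing (RAD50, NBN, RBBP8, EXO1, DNA2, BLM and EME1). The Fanconi anemia pathway gave 11 (FANCA, FANCB, FANCC, FANCE, FANCG, FANCL, FANCM, UBE2T, FANCD2, FANCI and BRIP1). A further 5 are checkpoint kinases or their activator (ATM, ATR, CHEK1, CHEK2 and TOPBP1), and the last 3 are the mismatch recognition protein MSH6, the polymerase POLQ and the helicase RECQL4.

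The series holds 38 polyadenylated RNA libraries in 19 groups of 2. T47D is an estrogen receptor positive luminal line, T47D-TR a line whose suffix the labels do not spell out, and BT-549 a mesenchymal line without the receptor. Each line was kept for 48 h in 0.125% DMSO or in 2.5 uM of 1 of 4 compounds: MS177, a degrader of EZH2, the negative controls named MS177-N1 and MS177-N2, and C24, an EZH2 inhibitor. T47D-TR was also kept for 30 h in 0.05% DMSO or 2.5 uM of a second EZH2 degrader (MS8815), of MS8815-N, which is that degrader's negative control, or of EPZ-6438, an inhibitor. The labels do not say that the 2 samples of a group came from separate cultures, so the p-values measure the spread between these samples, which may be technical. The files hold 1 library of MS177-N1 in T47D, because its second column equals MS177-N2 replicate 2.

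Homologous recombination repairs a broken chromosome, or a broken replication fork, from the sister copy. The broken end is resected to single-stranded DNA by nucleases started by the MRE11, RAD50 and NBN complex with RBBP8 (CtIP), and BRCA1, PALB2 and BRCA2 then prepare it to invade the intact copy. The Fanconi anemia core complex, with UBE2T as its ubiquitin-conjugating enzyme, marks FANCD2 and FANCI at crosslinked DNA, and ATR with its effector kinase CHEK1 holds the cell cycle while forks are stalled. In dividing cells, transcription of many of these genes follows the cell cycle. For some it is highest in S phase under E2F factors, and for others it runs through CHR and CCAAT elements. PRC2, of which EZH2 is the catalytic subunit, methylates histone H3 and represses transcription.

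Promoters from RefSeq (GRCh38.p14) were matched for 31 of the 36 genes, as windows from 250 bases before to 50 bases after each start. RAD54B, NBN, DNA2, FANCI and RECQL4 had none. An E2F motif (TTTCGCGC or TTTGGCGC, both strands) lay in 3 of the 31 (9.68%: EXO1, FANCC and TOPBP1) and in 1.4% of 27305 genes with a window. The CHR motif TTTGAA lay in 5 of 31 (16.1%, against 18.2%), CCAAT in 14 (45.2%, against 39.7%) and the NRF1 motif in 1, RBBP8 (3.23%, against 1.52%). The 30 bases around the match of EXO1, which begins 5 bases into the transcript (chr1:241848197-241848226, plus strand), show the E2F letters in capitals. The 250 bases upstream of UBE2T (chr1:202341937-202342186, minus strand) and BRIP1 (chr17:61863529-61863778, minus strand) are shown because their transcripts were among the lowest with MS177, and those of RAD50 (chr5:132556727-132556976, plus strand) because its transcript moved the other way. These 3 were chosen after their values were seen. Capitals there mark CHR and CCAAT letters on either strand, which RAD50 lacks in this window. CCAAT also lay in the window of PALB2, which rose with MS177 in T47D-TR. BARD1, BRCA2 and FANCD2, which fell in that line, had neither motif. The part of these motifs in the response was not tested. A match is a description of the letters, not of a bound site.
EXO1: aaaggtcagccTTTCGCGCgctgtgtaggc
UBE2T: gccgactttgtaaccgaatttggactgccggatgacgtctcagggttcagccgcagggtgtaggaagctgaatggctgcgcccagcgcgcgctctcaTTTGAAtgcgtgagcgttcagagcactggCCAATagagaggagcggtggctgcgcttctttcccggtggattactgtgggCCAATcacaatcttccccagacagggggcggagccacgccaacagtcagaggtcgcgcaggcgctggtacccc
BRIP1: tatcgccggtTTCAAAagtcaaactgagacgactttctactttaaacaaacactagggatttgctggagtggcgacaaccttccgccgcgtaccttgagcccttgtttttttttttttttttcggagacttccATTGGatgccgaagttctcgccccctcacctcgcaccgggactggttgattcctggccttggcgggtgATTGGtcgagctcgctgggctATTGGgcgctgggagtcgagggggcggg
RAD50: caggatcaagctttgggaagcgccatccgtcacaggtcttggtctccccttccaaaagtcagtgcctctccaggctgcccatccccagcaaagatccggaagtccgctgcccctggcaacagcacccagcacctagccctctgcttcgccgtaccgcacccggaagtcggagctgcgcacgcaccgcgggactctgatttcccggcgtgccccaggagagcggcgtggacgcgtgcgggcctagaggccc

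Over the listed genes, between 32.13 M and 49.87 M reads lay in each T47D or BT-549 library. In T47D-TR the values are not multiples of whole reads, so depth is unknown there. Levels are normalized counts, obtained by undoing the authors' log2 transform, and a log2 difference is on the log2(normalized count + 1) scale with its standard error from limma. A gene was called where its limma p-value, adjusted by the Benjamini-Hochberg method over all genes tested in that comparison, was under 0.05. ESR1 and KRT8 marked T47D and T47D-TR, and VIM marked BT-549 (2097 CPM, the share of listed counts scaled to a common total, against 2.883 in T47D), as the labels have it. FOXM1, named in the aim of the series, fell from 1326 and 1593 normalized counts in DMSO to 231.5 and 233.7 with MS177 in T47D-TR (6.27-fold), and EZH2 rose there from 239.3 and 254.5 to 372.8 and 345.1. The exons of 16 of the 36 genes overlap those of another gene in the GENCODE annotation, 14 of them on the opposite strand (FANCI with POLG, FANCA with ZNF276 and MSH6 with FBXO11, for example), and the strand setting of the counting is not given in the sources used here. Those 14 levels can therefore hold reads of the partner.

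**Figure D1:**
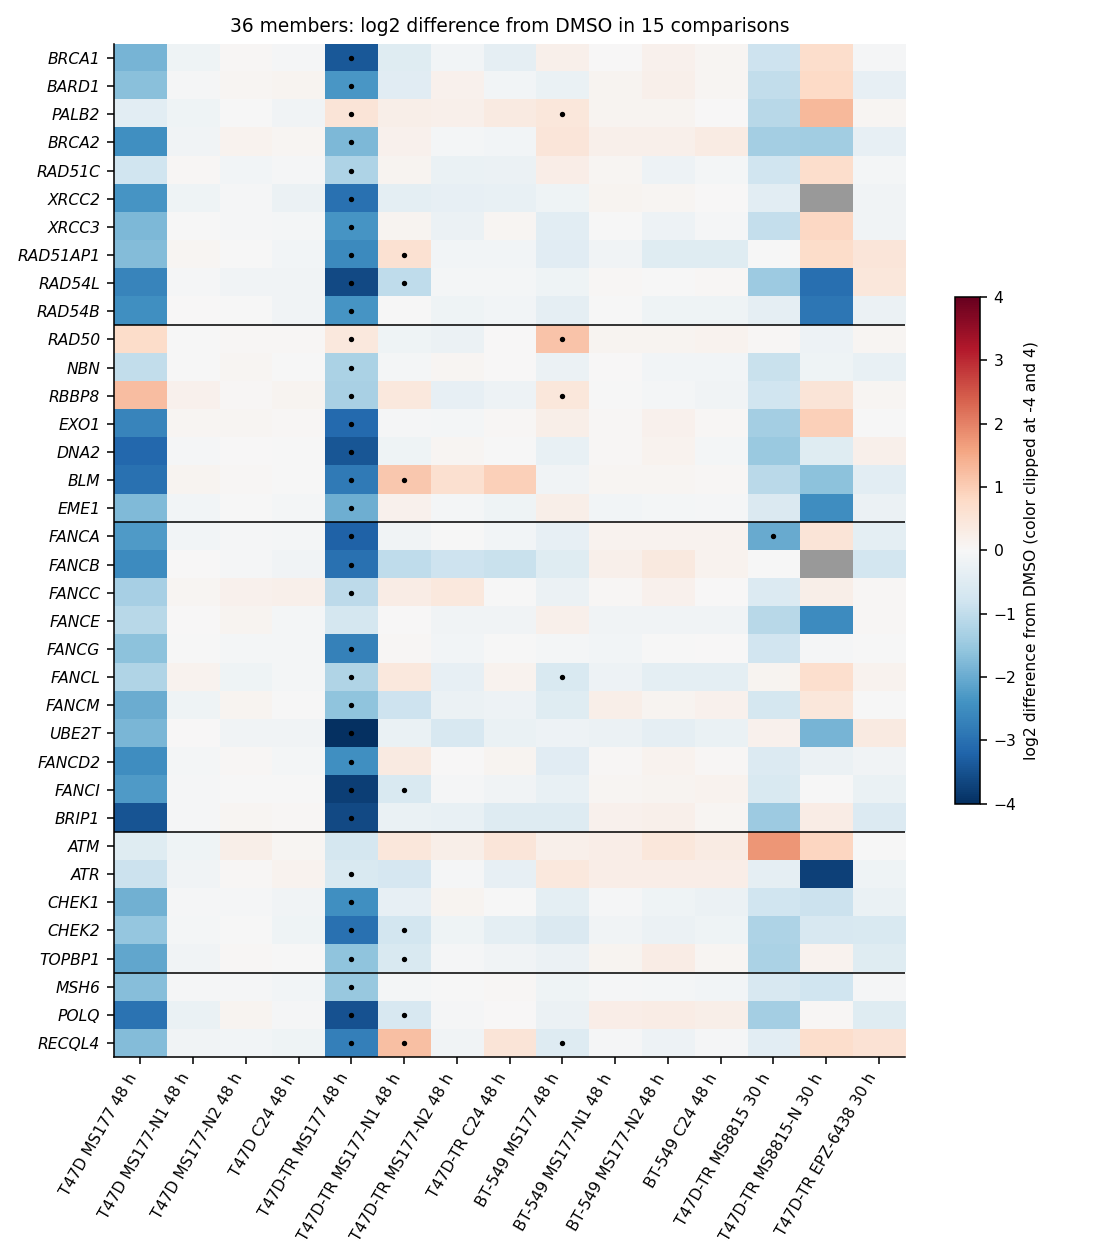
Log2 difference from DMSO for the 36 genes (rows, in 4 blocks by role and a last block of 3) in the 15 comparisons (columns), on a color scale clipped at -4 and 4. Dots mark calls at an adjusted p under 0.05 and gray cells 2 genes below the filter on low values. The T47D-TR MS177 column holds 34 dots, and the T47D MS177 column holds none and is blue for all but RBBP8 and RAD50.

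MS177 was first compared with DMSO in T47D-TR. Of the 36 genes, 32 fell and 2 rose, with a median log2 difference of -2.41. On the deposited log2 values, where 31 of the 36 could be tested, 27 fell and 2 rose and the median was -1.02, with BRCA1 at -1.59 and BRCA2 at -0.58, so sizes in this line depend on the scale. Among all 14555 genes tested, 26.9% fell and 27.6% rose, 54.6% in all, and their median was 0. Both MS177 libraries lay below both DMSO libraries for 33 of the 36 genes, against 38.9% of all genes, and above them for 2, against 39.5%. In bulk RNA, fewer cells of a kind and less RNA per cell cannot be told apart.

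In the strand invasion group 9 of 10 genes fell and PALB2 rose (median -2.37). BRCA1, the ubiquitin ligase that starts recombination at resected ends (chromosome 17, 43044295 to 43170327), stood at 803.7 and 716.3 in DMSO and at 97.45 and 52.75 with MS177. The groups did not overlap, and the 10.1-fold fall was -3.38 ± 0.29 on the log2 scale (limma adjusted p = 0.000245). Its partner BARD1 fell from 537.7 and 594.5 to 127.5 and 97.45. BRCA2, the mediator that PALB2 brings to the break, went from 147.6 and 215.3 to 68.34 and 37.02, a smaller fall of 3.44-fold (-1.80 ± 0.35, limma adjusted p = 0.00548). RAD51AP1, which aids strand pairing, fell from 236.6 and 237.5 to 35.3 and 45.08. RAD54L, a motor protein that acts during strand invasion, stood at 221.2 and 258.2 in DMSO and at 10.01 and 34.42 with MS177, and its 10.8-fold fall was the largest of this group (-3.60 ± 0.52, limma adjusted p = 0.00174). PALB2, the bridge between BRCA1 and BRCA2, was higher, from 238.7 and 255.1 to 357.7 and 345.9 (0.51 ± 0.15, limma adjusted p = 0.0246), a call that was lost without DMSO replicate 1 (0.0678), MS177 replicate 1 (0.123) or MS177 replicate 2 (0.0976).

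Of the 7 end resection genes 6 fell and 1 rose. The nuclease EXO1, which carries resection over long distances, fell from 656.3 and 713.9 to 67.83 and 91.96 (8.58-fold), the nuclease and helicase DNA2 by 10.9-fold and the helicase BLM by 7.66-fold. RBBP8, which starts resection, fell less, from 1769 and 1742 to 638.6 and 805.4 (2.43-fold), as did NBN (2.41-fold). RAD50, the structural subunit of the break sensor complex (chromosome 5, 132556977 to 132646349), rose from 833.8 and 1010 to 1269 and 1197 (0.43 ± 0.13, limma adjusted p = 0.0352). This call was lost without DMSO replicate 1 (limma adjusted p = 0.113), MS177 replicate 1 (0.165) or MS177 replicate 2 (0.101).

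The Fanconi genes had the lowest median of the 4 larger groups (-2.71), and 10 of the 11 fell. UBE2T (chromosome 1, 202331657 to 202341936) stood at 66.34 and 44 in DMSO and at 0 and 2.267 with MS177, and no fold is given against levels this low (-4.93 ± 0.68, limma adjusted p = 0.0014). Both proteins of the ubiquitinated pair had lower transcripts. FANCI went from 1429 and 1686 to 121.6 and 104.9, a 13.8-fold fall (-3.77 ± 0.16, limma adjusted p = 2.65e-05), and FANCD2 from 1252 and 1096 to 226.2 and 200.1, a 5.51-fold fall. BRIP1, the helicase that binds BRCA1, fell from 291.5 and 409 to 26.32 and 28.66 (12.7-fold). FANCA of the core complex fell 9.55-fold and FANCG 6.61-fold, while FANCC fell 2.08-fold. FANCE was not called (114.3 in DMSO and 71.36 with MS177 on average, limma adjusted p = 0.0679), although its MS177 libraries lay below its DMSO libraries.

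Of the 5 checkpoint genes 4 fell. The effector kinase CHEK1 fell from 1262 and 1001 to 190.8 and 215.9 (5.56-fold) and CHEK2 from 304.9 and 302.1 to 33.12 and 43.14 (7.96-fold). TOPBP1, which activates ATR, fell 3.06-fold. ATR fell less, from 758 and 859.4 to 483.5 and 581.6 (1.52-fold, limma adjusted p = 0.0137). ATM, the kinase of the double-strand break response, was at 333.4 and 372.1 in DMSO and at 388.9 and 119.6 with MS177. Its groups overlapped and it was not called (limma adjusted p = 0.265). Of the last 3 genes, POLQ fell 10-fold, RECQL4 6.69-fold and MSH6 2.85-fold.

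Leaving out any 1 of the 4 libraries left 30 to 33 of the 36 genes called in T47D-TR. The summed level of the 36 genes with MS177 was 31.8 and 32.8% of the DMSO mean. The 12 proliferation markers moved with them: all 12 fell (median -2.93), their sum was 12.8 and 13.6% of the DMSO mean, and their part in the result was not tested.

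**Figure D2:**
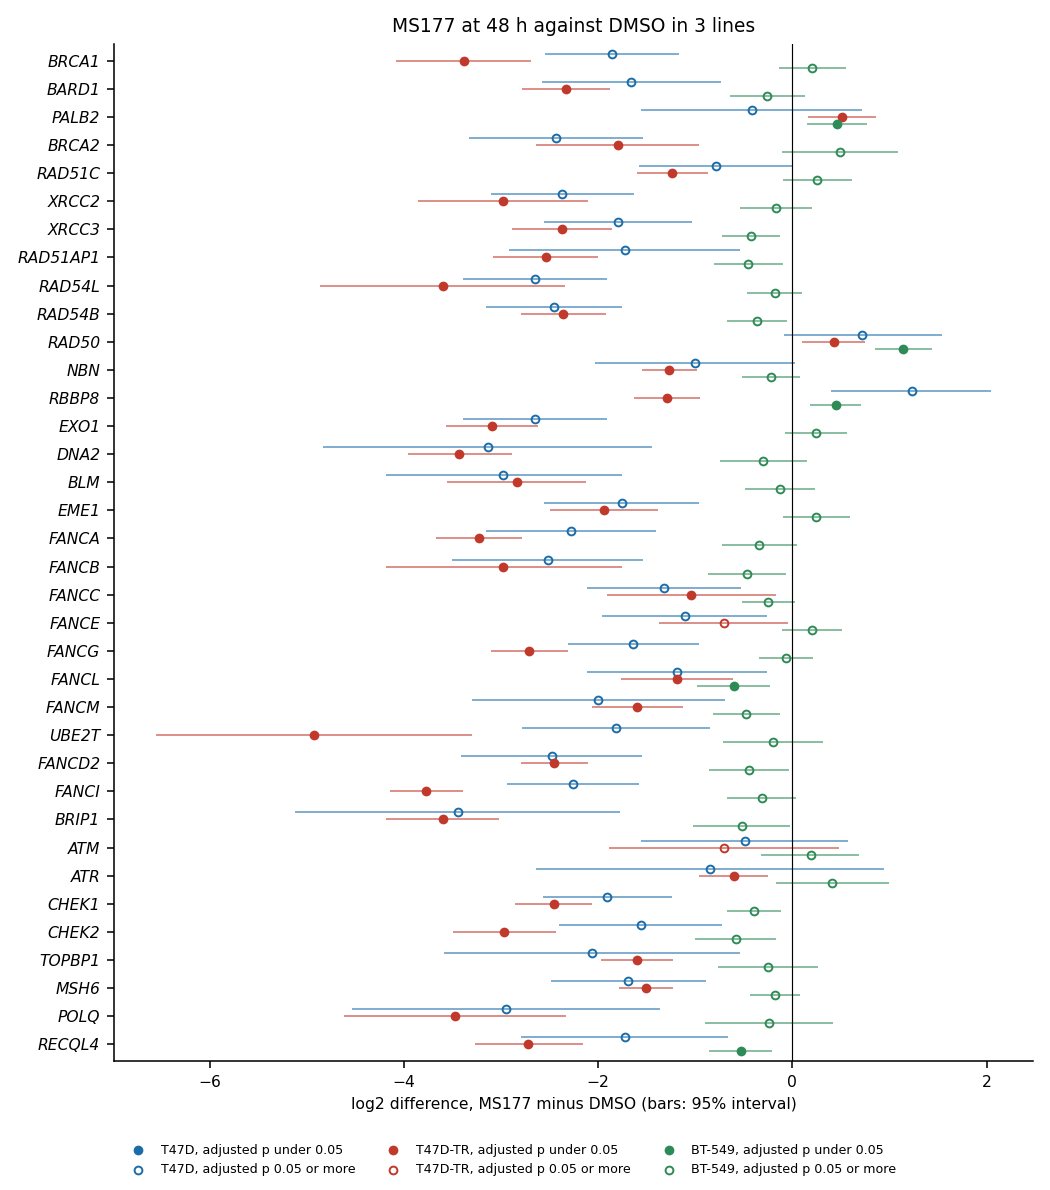
Log2 difference with MS177 against DMSO at 48 h for each of the 36 genes (rows) in T47D, T47D-TR and BT-549, with 95% intervals from limma as bars. Filled points passed an adjusted p of 0.05 and open points did not. T47D and T47D-TR points lie left of 0 for 34 genes each, and BT-549 points lie near 0, with RAD50 at 1.14.

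In T47D the same dose gave lower values for 34 of the 36 genes, with a median log2 difference of -1.81, and none was called. No gene at all was called there: 0% of the 17370 genes tested passed limma's adjusted p, 3163 had an unadjusted p under 0.05, and the precision-weighted voom form of limma also called none of the 36. Of the 36, 30 had an unadjusted p under 0.05. Both MS177 libraries were below both DMSO libraries for 31 genes, against 28.2% of all genes, and above them for 2, against 27.5%.

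The T47D values are given as measured, without a call. BRCA1 stood at 2946 and 2695 in DMSO and at 827.5 and 726.7 with MS177 (-1.86 ± 0.26, limma adjusted p = 0.13). BRCA2 was at 781.7 and 595.1 against 106.7 and 146.8, and RAD54L at 653 and 734.9 against 114.9 and 104.5. EXO1 was at 1553 and 1494 against 214.5 and 272.4. In each of these 4 genes the MS177 libraries lay close together and far below both DMSO libraries. The lowest log2 difference was that of BRIP1 (788.4 and 741.1 against 38.68 and 122.6, -3.45 ± 0.62), followed by DNA2 (1160 and 1099 against 70.32 and 229.2, -3.14) and BLM (633.8 and 667.6 against 56.26 and 118.6, -2.98). FANCI was at 5152 and 5025 against 1002 and 1128, FANCD2 at 3010 and 2825 against 407.9 and 667.4, and UBE2T at 2033 and 2318 against 795.8 and 472.4. CHEK1 was at 3629 and 3627 in DMSO against 943.5 and 988.1. BARD1 (1082 and 1051 against 264.9 and 427.2) and RAD51AP1 (795.1 and 902.3 against 368 and 176.9) had MS177 libraries that stood further apart.

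Only RBBP8 and RAD50 lay above DMSO in both MS177 libraries in T47D. RBBP8 was at 3635 and 3827 in DMSO and at 10440 and 7295 with MS177 (1.23 ± 0.31, limma adjusted p = 0.184). RAD50 was at 2892 and 2856 against 5688 and 3962 (0.72 ± 0.30, limma adjusted p = 0.309). ATM (1660 and 1363 against 791.1 and 1445), ATR (1781 and 1693 against 512.2 and 1811) and PALB2 (723.2 and 824.8 against 409 and 814.2) had overlapping groups, with only the first MS177 library low.

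The 2 MS177 libraries of T47D differed by transcript length. Each library was set against the mean of the line's DMSO libraries. In replicate 1, genes in the top quartile of transcript length stood lower than those in the bottom quartile (log2 difference -1.15). In replicate 2 they stood higher (0.39), and the other T47D libraries ran from -0.12 to 0.14. ATR, with a longest transcript of 8249 bases, and TOPBP1, with 6152, were lower in replicate 1 than in replicate 2 (434.8 and 1234 for TOPBP1). RAD50, with 8306 bases, and BRCA1, with 7270, were higher in replicate 1 (5688 and 3962 for RAD50, 827.5 and 726.7 for BRCA1). These genes are examples. The part of length in the result was not tested. Without MS177 replicate 1 limma called 31 genes lower and 2 higher, with 50.7% of all genes called, and without MS177 replicate 2 it called 34 and 2, with 71.2% of all genes. Without DMSO replicate 1 it called none (0.414% of all genes) and without DMSO replicate 2 it called 1 (0.55%). The lone library of a group is there assumed to vary like the other group. With all T47D libraries in 1 fit, which adds the other compounds to the estimate of the spread, 30 were lower and 1 was higher, with 18.2% of all genes called. The summed level of the 36 genes was 50.5 and 49% of the DMSO mean, and that of the proliferation markers 29 and 25.1%.

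In BT-549, MS177 called 2 of the 36 genes lower and 3 higher, against 24% of 16336 genes called (12.6% lower, 11.5% higher). The median difference of the 36 was -0.23. FANCL, the ubiquitin ligase subunit of the core complex, fell from 1043 and 860.8 to 597.3 and 652.5 (-0.60 ± 0.15, limma adjusted p = 0.0406), and RECQL4 from 7625 and 7125 to 4704 and 5515 (-0.53 ± 0.13, limma adjusted p = 0.0381). RAD50 rose from 1564 and 1402 to 3279 and 3269, 2.21-fold (1.14 ± 0.12, limma adjusted p = 0.00442), the largest difference of the 36. RBBP8 rose from 2960 and 2950 to 3990 and 4067 and PALB2 from 838.4 and 868.1 to 1241 and 1112. In both groups of each of these 5 genes the libraries lay apart from those of the other group.

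BRCA1, BRCA2 and EXO1, which fell in T47D-TR, did not pass the test in BT-549. BRCA1 was at 2204 and 2524 in DMSO and at 2911 and 2532 with MS177 (0.20 ± 0.14, limma adjusted p = 0.323). BRCA2 was at 272.4 and 353.5 against 527.2 and 361.1 (0.49 ± 0.24, limma adjusted p = 0.192), and EXO1 at 2115 and 2362 against 2807 and 2484. These 3 were higher in both MS177 libraries without passing the test. UBE2T (2606 and 2052 against 1710 and 2362), ATM (1103 and 1425 against 1642 and 1241) and ATR (1479 and 1943 against 2706 and 1873) had overlapping groups. BARD1 (663.1 and 738.1 against 644.9 and 531.5), RAD51AP1 (1678 and 1422 against 1065 and 1189) and RAD54L (2166 and 2349 against 2029 and 1945) lay lower in both MS177 libraries, with log2 differences of -0.26, -0.46 and -0.18. FANCD2 (1834 and 2215 against 1636 and 1335), FANCI (5282 and 6203 against 4968 and 4264) and BRIP1 (664.2 and 862.9 against 599.1 and 466.6) were lower in both, as was CHEK1 (1846 and 1877 against 1426 and 1396, limma adjusted p = 0.0518) and CHEK2 (1137 and 905.5 against 628.1 and 728, limma adjusted p = 0.0579). In all, 19 of the 36 genes had both MS177 libraries below both DMSO libraries (32.5% of all genes) and 9 above (32.4%).

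Calls in BT-549 changed with single libraries: 1 gene was called without DMSO replicate 1, 3 without DMSO replicate 2 and 9 without MS177 replicate 2. The summed level of the 36 genes was 95.1 and 89.4% of the DMSO mean, that of the proliferation markers 73.5 and 75.2%, with 5 of 12 markers lower, and that of 13 mitochondrial transcripts 68.5 and 57.2%. The part of either list in the result was not tested.

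**Figure D3:**
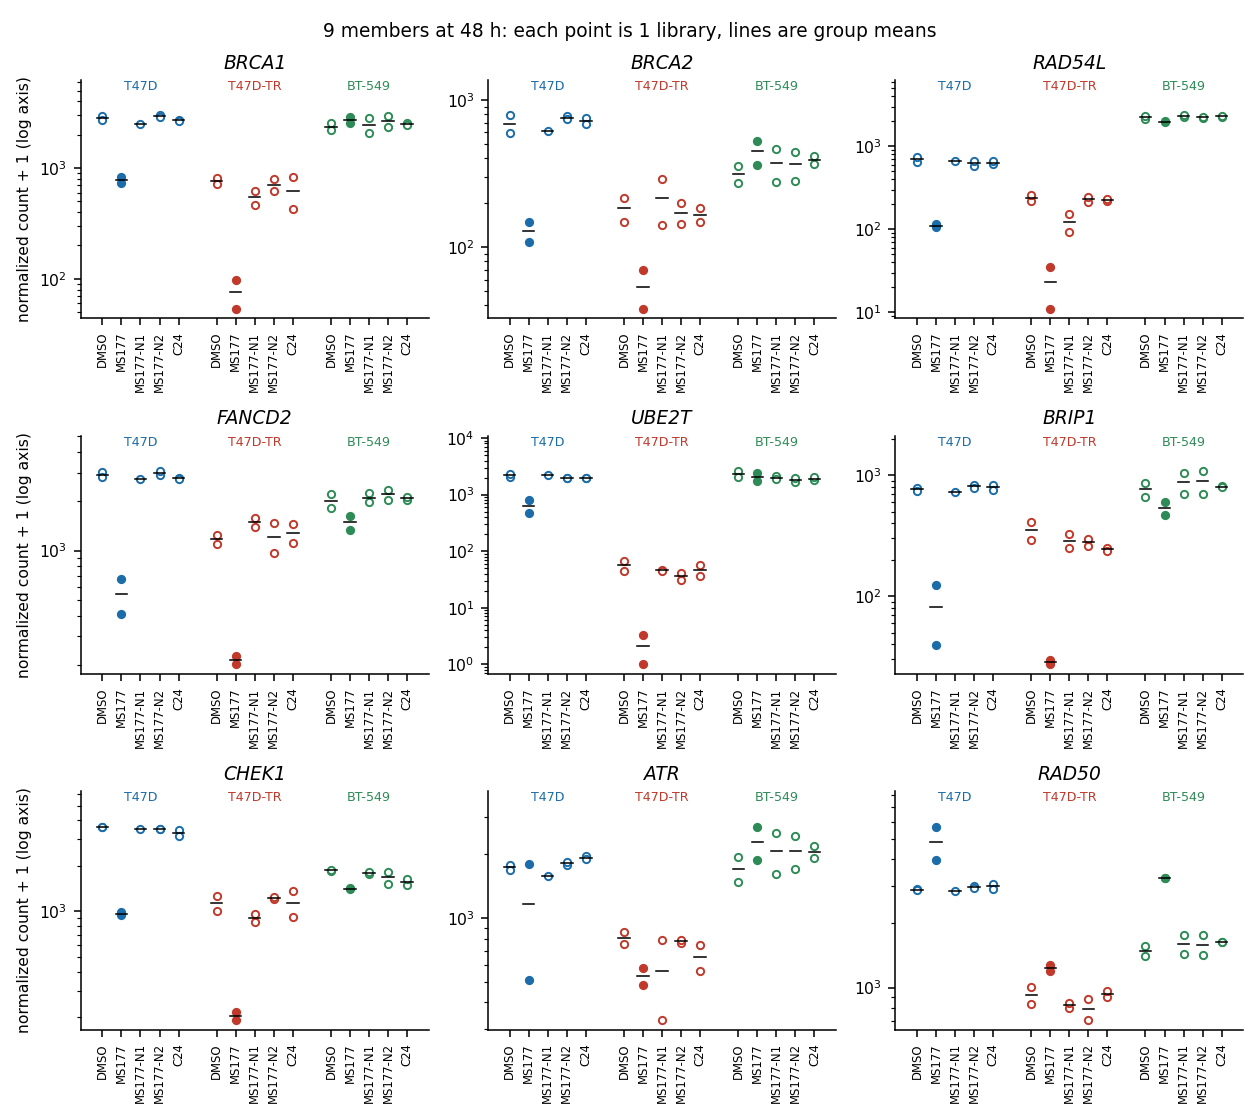
Normalized count plus 1 (log axis) of 9 of the genes in every 48 h library of the 3 lines, by compound. Each point is 1 library, filled for MS177, and short lines are group means. MS177 points of T47D-TR lie below the other T47D-TR points for every gene shown except RAD50 and ATR. The scales of the 3 lines were set separately.

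The difference of the MS177 response between lines was tested as an interaction of line and treatment. Between T47D-TR and BT-549, 31 of the 36 genes had a lower response in T47D-TR and none a higher one, against 17.6% of 11945 genes lower, 14.9% higher and 32.5% called in all. The largest differences were those of UBE2T (-4.73 ± 0.72, limma adjusted p = 0.00244), BRCA1 (-3.59 ± 0.37, limma adjusted p = 0.00044) and FANCI (-3.45 ± 0.21, limma adjusted p = 6e-05). With MS177 in T47D-TR, UBE2T stood at 0 and 2.267, so its size and rank can depend on the 1 added before the log. Leaving out 1 library gave 28 to 32 genes. On the deposited log2 values 21 of 31 genes were called lower, none higher, and the median was -0.82 in place of -2.08. ATM, FANCC, FANCE, FANCL and PALB2 were the 5 not called. PALB2 rose in both lines, and its difference was 0.05 (95% interval -0.35 to 0.45).

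Between BT-549 and T47D, 10 genes had a higher response in BT-549 (BRCA1, BRCA2, CHEK1, EME1, EXO1, FANCG, FANCI, RAD54B, RAD54L and XRCC2), against 0.889% of 14739 genes higher, 0.835% lower and 1.72% called in all. BRCA2 (2.93 ± 0.42), EXO1 (2.89 ± 0.26) and RAD54L (2.47 ± 0.23) differed most, with limma adjusted p-values of 0.0345, 0.0217 and 0.0217. This count rests on single libraries and changed without any 1 of them, while the median of the 36 lay between 1.52 and 1.76. With the replicate block the count was 0. Between T47D-TR and T47D no gene of the 36 was called (0.0314% of 12755 genes were, 0.0157% in each direction), and 7 of the 36 had an unadjusted p under 0.05. The share of all genes at that unadjusted p is not given beside this count. The sign differed for 2 genes. RBBP8 was lower in T47D-TR and above DMSO in T47D (interaction -2.52 ± 0.33, limma adjusted p = 0.0562), and PALB2 was higher in T47D-TR and below DMSO on average in T47D (0.93 ± 0.46, limma adjusted p = 0.472). On the deposited log2 values the median interaction of the 31 genes tested was 0.74, against -0.37 here. Without T47D MS177 replicate 1 or 2 the median interaction of the 36 was -0.6 or -0.29 on the scale used here.

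In DMSO the 36 genes together took 1846 CPM in T47D, 1835 in BT-549 and 1556 in T47D-TR at 48 h. UBE2T was at 63.91 CPM in T47D, 61.72 in BT-549 and 4.217 in T47D-TR. Each line's tables were normalized separately and the T47D-TR values carry a factor of their own for each gene, so these levels are given side by side without a test.

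MS177 was next set beside its analogs at the same dose and time, in 9 comparisons over the 3 lines, each fitted on all 48 h libraries of the line. The labels name MS177-N1 and MS177-N2 as negative controls of the degrader and C24 as an inhibitor. In T47D-TR, MS177 was lower than MS177-N1 for 32 genes and higher for 1, where 26.8% of 15027 genes were lower and 23.9% higher (50.7% in all). It was lower than MS177-N2 for 31 and higher for 1 (24.5% and 21.8% of all genes, 46.4% together), and lower than C24 for 31 and higher for 0 (25.8% and 22.3%, 48.1% together). UBE2T had the largest difference from each of the 3, at -4.65 ± 0.55, -4.29 ± 0.55 and -4.67 ± 0.55. Its MS177 levels were 0 and 2.267, so these sizes and their rank can depend on the 1 added before the log. Against DMSO its log2 difference ran from -5.78 to -3.29 over the settings tried. BLM followed for MS177-N1 and C24 (-3.94 ± 0.23 and -3.79 ± 0.23), and FANCI for MS177-N2 (-3.72 ± 0.19). FANCI came next against C24 (-3.63 ± 0.19), RECQL4 against MS177-N1 (-3.92 ± 0.36) and RAD54L against MS177-N2 (-3.54 ± 0.47). RAD50 was the 1 gene higher, by 0.58 ± 0.15 over MS177-N1 and 0.64 ± 0.15 over MS177-N2, with limma adjusted p-values of 0.0103 and 0.00699.

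In T47D, where the shared fit borrows the spread of the other compounds, MS177 was lower than MS177-N1 for 25 genes and higher for 0, where 5% of 17341 genes were lower and 3.56% higher (8.56% in all). It was lower than MS177-N2 for 29 and higher for 1 (9.09% and 7.6% of all genes, 16.7% together), and lower than C24 for 30 and higher for 1 (11% and 8.29%, 19.3% together). BRIP1 was lowest against each, at -3.39 ± 0.60, -3.54 ± 0.49 and -3.50 ± 0.49, and DNA2 was among the 3 lowest each time (-3.08 ± 0.62, -3.17 ± 0.50 and -3.13 ± 0.50). BLM completed these against MS177-N1 and C24 (-3.08 ± 0.41 and -2.96 ± 0.33) and POLQ against MS177-N2 (-3.06 ± 0.47). RBBP8 was higher than with MS177-N2 (1.19 ± 0.20) and C24 (1.11 ± 0.20). With the libraries of the 2 compounds alone none of the 36 was called in any of the 3 comparisons, and leaving out either library of MS177-N2 gave 6, and of C24 6 or 8.

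In BT-549, MS177 was lower than MS177-N1 for 6 genes and higher for 2, where 17.7% of 16345 genes were lower and 15.4% higher (33.1% in all). It was lower than MS177-N2 for 5 and higher for 4 (19.4% and 17.8% of all genes, 37.2% together), and lower than C24 for 5 and higher for 3 (18.9% and 16.8%, 35.7% together). RAD50 was higher in each, by 1.04 ± 0.14, 1.05 ± 0.14 and 1.00 ± 0.14, as was RBBP8, by 0.47 ± 0.11, 0.53 ± 0.11 and 0.59 ± 0.11. RAD51C was higher than with MS177-N2 (0.46 ± 0.14), and PALB2 higher than with MS177-N2 (0.36 ± 0.12) and C24 (0.45 ± 0.12). The helicase FANCM (-0.71 ± 0.18, -0.59 ± 0.18 and -0.64 ± 0.18) and FANCD2 (-0.51 ± 0.15, -0.57 ± 0.15 and -0.50 ± 0.15) were lower in each. FANCA was lower in each as well (-0.47 ± 0.16, -0.49 ± 0.16 and -0.49 ± 0.16). RECQL4 was lower than with MS177-N1 (-0.47 ± 0.13) and C24 (-0.49 ± 0.13), and FANCB than with MS177-N2 (-0.85 ± 0.25). Against C24 the count fell without any 1 of the libraries compared. Against MS177-N1 and MS177-N2 it fell without some libraries and not without others. The share of all genes called changed as well. Without single libraries the median log2 difference of the 36 ran from -0.32 to -0.13 against MS177-N1. It ran from -0.27 to -0.13 against MS177-N2 and from -0.23 to -0.09 against C24.

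Against DMSO, the negative controls and inhibitors called none of the 36 genes in 10 of 11 comparisons. By limma the unadjusted p was under 0.05 for 0 to 3 of the 36 in each of these, and voom, run in T47D and BT-549, called none. The background in those lines was 0.0651% of all genes for MS177-N1, 0% for MS177-N2 and 0.574% for C24 in T47D, 0% for MS177-N1, 2.12% for MS177-N2 and 0.165% for C24 in BT-549, and 0.111% for MS177-N2 and 0.014% for C24 in T47D-TR. The lowest and highest log2 differences of the 36 were -0.28 and 0.22 with MS177-N1 and MS177-N2 in T47D, and -0.24 and 0.20 with C24. In BT-549 they ran from -0.50 to 0.45 over the 3 compounds, and in T47D-TR with MS177-N2 or C24 from -0.90 to 0.94. BRCA1 with C24 was at 2717 and 2670 in T47D and 2554 and 2443 in BT-549, in the range of DMSO or next to it. EPZ-6438 and MS8815-N, at 30 h, also called none of the genes tested, against 0% of all genes each, with none of the 36 at an unadjusted p under 0.05.

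MS177-N1 in T47D-TR was the exception, with 5 of the 36 lower and 3 higher, against 7.39% and 9.92% of 14038 genes and 17.3% in all. The total is near that share of all genes, so it is not read as a result about the 36. On the scale of the MS177 table, RECQL4 stood at 898.4 and 615.4 in DMSO and at 1435 and 2050 with MS177-N1 (1.20 ± 0.23, limma adjusted p = 0.0157), and BLM at 135.4 and 99.97 against 289.2 and 215.9 (1.09 ± 0.27). RAD51AP1 rose too (0.60 ± 0.18). RAD54L fell from 221.2 and 258.2 to 149.8 and 91.42 (-1.02 ± 0.26), and CHEK2 (-0.73 ± 0.20), POLQ (-0.65 ± 0.19), FANCI (-0.62 ± 0.18) and TOPBP1 (-0.61 ± 0.17) fell less. The tests are from the compound's own table. RECQL4, BLM and RAD51AP1 moved here against their direction with MS177. The summed level of the 36 stayed at 99 and 100% of the DMSO mean. In both MS177-N1 libraries the longest transcripts were low relative to the shortest (-0.6 and -0.79 log2 units, against -0.18 and 0.18 in DMSO). Mitochondrial transcripts were at 54.9 and 39.9% of the DMSO mean. Without calls, C24 replicate 2 was at 43.8% (long minus short -0.43) and MS177-N2 replicate 1 at 58%. The other library of each was at 109 and 94.7%. The part of length or mitochondrial transcripts in the MS177-N1 result was not tested. None of the 36 was called without DMSO replicate 2, without MS177-N1 replicate 2 or with all 48 h libraries of the line in 1 fit, and 3 were without DMSO replicate 1.

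**Figure D4:**
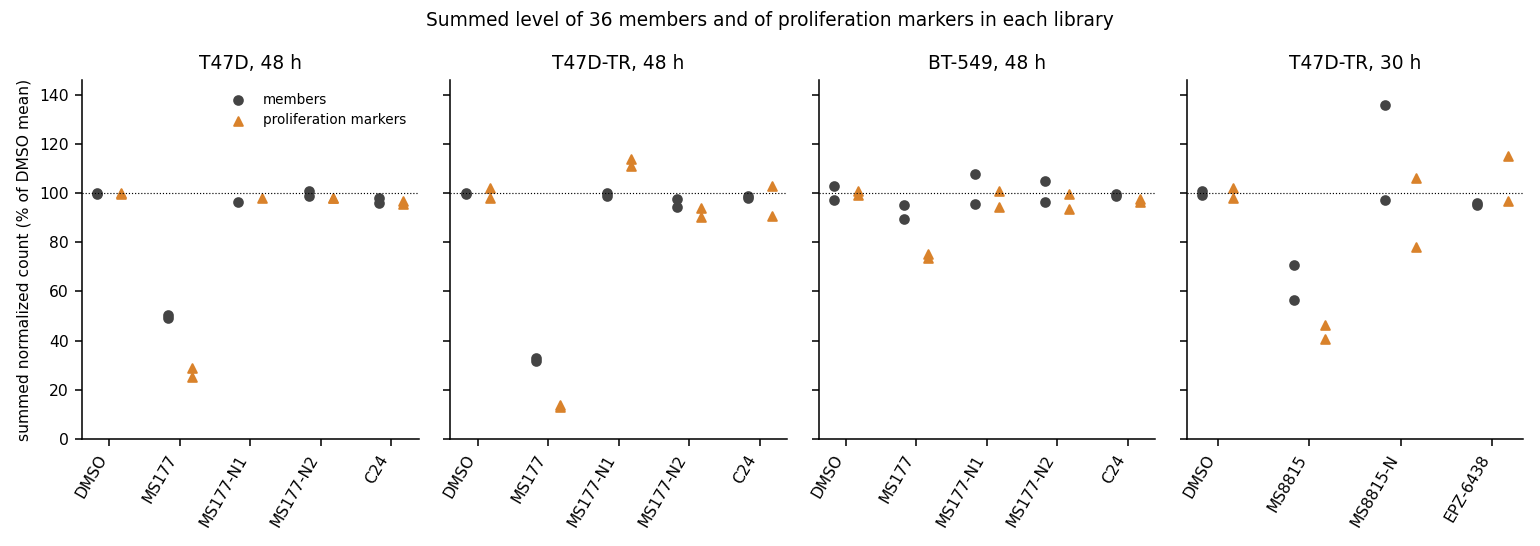
Summed normalized count of the 36 genes (circles) and of 12 proliferation markers (triangles) in each library, as a percentage of the DMSO mean of its line and time. With MS177 the circles lie at 49 and 50.5% in T47D, 31.8 and 32.8% in T47D-TR and 89.4 and 95.1% in BT-549, and the triangles lie lower in each.

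MS8815, the other degrader, was measured in T47D-TR at 30 h only, so its values stand beside those of MS177 at 48 h without a comparison. It gave lower values for 32 of the 36 genes (median log2 difference -0.79), of which 1 was called, against 2.18% of 13456 genes lower, 3.01% higher and 5.19% called in all. That gene was FANCA, a subunit of the core complex, which fell from 294.9 and 267.6 to 52.29 and 88.24 (4-fold, -2.03 ± 0.34, limma adjusted p = 0.0481). An unadjusted p under 0.05 was seen for 15 of the 36. The share of all genes at that p is not given here, so this count is not read as a result about the 36. Both MS8815 libraries lay below both DMSO libraries for 23 genes, against 31.7% of all genes, and above them for 1, ATM, against 30.2%.

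BRIP1 was at 145.7 and 159.2 in DMSO and at 53.49 and 55.95 with MS8815 (-1.46 ± 0.26, limma adjusted p = 0.051), and DNA2 at 262.3 and 202.8 against 71.04 and 95.98 (-1.47 ± 0.30). EXO1 was at 390 and 520.7 against 150.1 and 205.3, and BARD1 at 289.5 and 307.2 against 137.2 and 163. These 4 had MS8815 libraries well below DMSO without passing the test. BRCA1 (326 and 195.1 against 180.7 and 109.8) and BRCA2 (41.61 and 74.62 against 32.03 and 13.81) lay below the DMSO range. For both, MS8815 replicate 1 was just below it and replicate 2 further below. FANCD2 was at 681.6 and 724.2 against 589 and 391.6, FANCI at 616.3 and 673.4 against 513.4 and 352.2, and CHEK1 at 643.5 and 738 against 283.5 and 558. ATM was the highest, at 101.8 and 46.27 in DMSO and 330.9 and 164.2 with MS8815 (1.75 ± 0.54, limma adjusted p = 0.123). RAD54L (121.1 and 107.1 against 17.58 and 93.44) was low in both libraries but far lower in the first. RAD51AP1 (133.6 and 164.4 against 318.8 and 65.7), UBE2T (46.23 and 28.12 against 62.63 and 26.26), FANCL (65.44 and 77.35 against 100 and 57.99), RAD50 (284.3 and 287.1 against 391 and 225.4) and ATR (435.8 and 465.4 against 278.7 and 442.6) had overlapping groups, and in the first 4 of them replicate 1 was above DMSO and replicate 2 below.

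The MS8815 libraries differed from each other. In replicate 1 the 10 most abundant genes took 21.37% of the counts, against 8.95% in replicate 2, and mitochondrial transcripts stood at 242 and 114% of the DMSO mean. The median log2 difference of the 36 was -0.85 without MS8815 replicate 1 and -0.69 without replicate 2. It was -0.74 or -0.84 without DMSO replicate 3 or 4. The FANCA call was lost with no filter on low values and with all 30 h libraries in 1 fit. It was also lost without DMSO replicate 3 or 4. The log2 difference of FANCA ran from -2.4 to -1.33 over the settings. The summed level of the 36 genes was 56.4 to 70.9% of the DMSO mean and that of the proliferation markers 46.4 and 40.8%, and the part of the markers was not tested.

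MS8815 was set beside its control and the inhibitor at 30 h, 2 comparisons in which none of the 36 was called. Against MS8815-N 7 of the 36 had an unadjusted p under 0.05 by limma (0.0574% of 13934 genes called, 0% lower) and against EPZ-6438 2 did (0.108%, 0% lower), with medians of -0.65 and -0.66 (0.52 and -0.01 over all genes tested). These percentages are of called genes, and the share of all genes at the unadjusted p is not given. The comparison with MS8815-N rests on a library with a gap: in MS8815-N replicate 2, 6933 of 15648 genes are listed at 0, BRCA2, XRCC2, RAD54L, RAD54B, BLM, EME1, FANCB, FANCE, UBE2T and ATR among the 36. XRCC2 and FANCB did not pass the filter on low values against DMSO there, so 34 were tested. Against DMSO the median log2 difference of the genes tested was 0.02 for MS8815-N, 0.51 without its replicate 1 and -0.16 without its replicate 2. For EPZ-6438 it was -0.11, and -0.1 or -0.01 without its replicate 1 or 2. The long minus short difference was -0.77 in EPZ-6438 replicate 2, -0.85 in MS8815-N replicate 1 and -0.39 in MS8815 replicate 1, against -0.11 and 0.11 in the 30 h DMSO libraries.

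Other genes of the same pathways, 48 outside the 36, were followed as a list of their own. With MS177 in T47D-TR, 28 of the 46 tested fell and 7 rose (median -0.76). Of all 14555 genes tested there, 3922 fell and 4023 rose, 54.6% in all. CLSPN, which couples ATR to CHEK1, fell 14.8-fold (limma adjusted p = 0.000332), and RMI2, a partner of BLM, 8.20-fold. RPA1, the large subunit of the protein that coats single-stranded DNA, fell 4.96-fold, and MRE11, the nuclease that works with RAD50, 3.92-fold. Those that rose included RAD52 (3.36-fold), the nuclease FAN1 (2.78-fold) and HUS1, part of the checkpoint clamp (2.75-fold, from 351 ± 11.44 to 965.3 ± 40.56, SD, n = 2). In BT-549, 1 of 48 fell, RPA1 (1.39-fold), and 3 rose, HUS1 (1.94-fold), RAD17, which loads that clamp (1.52-fold), and ERCC4 (1.43-fold), with a median of 0.03. There 24% of all genes were called, so these counts are below the share of all genes. In T47D none was called, as for all genes tested. There 21 of 48 had an unadjusted p under 0.05, with the count over all genes given above, and the median was -0.58. These genes were picked for naming after their values were seen.

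**Figure D5:**
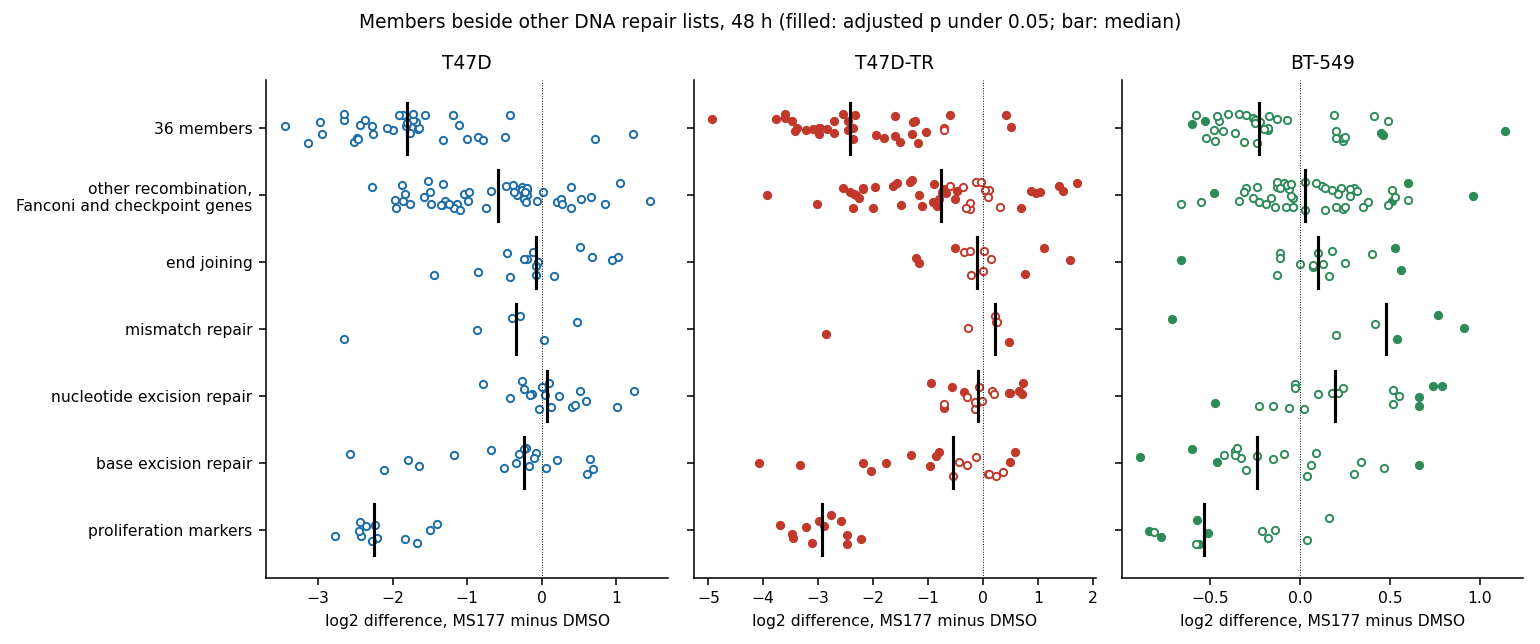
Log2 difference with MS177 against DMSO for each tested gene of the 36, of other genes of the same pathways, of end joining, mismatch, nucleotide excision and base excision repair and of proliferation markers, in the 3 lines. Each point is 1 gene and the line is the list's median. In T47D-TR the medians of the 36 (-2.41) and of the proliferation markers (-2.93) lie lowest.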

How the data were processed

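The deposited tables hold log2 variance-stabilized values per gene, and the submitters' processing notes name RSEM, DESeq and hg38 without versions. The authors' log2 values were turned back into normalized counts. In T47D and BT-549 all values checked, up to 1000 reads, came out within 0.05 read of a whole read. In T47D-TR they did not, and each gene there carries its own factor between tables, equal for both DMSO libraries to within 0.01 log2.

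Genes reaching 10 normalized counts in 2 or more libraries were tested with limma 3.58.1 in R 4.3.3 (trended, robust) on log2(normalized count + 1), with Benjamini-Hochberg adjustment over all genes tested and a threshold of 0.05. Each of the 15 comparisons with DMSO used its own table, the 11 between compounds all libraries of a line and time, and the 3 between lines an interaction. The code was tested on simulated data. Python 3.11.15, pandas 2.3.3, numpy 2.4.6 and matplotlib 3.10.9 made tables and figures.

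The 36 genes, the other lists and the tests were chosen with earlier results of these data known. The text names BRCA1, BRCA2, BARD1, RAD51AP1, RAD54L, EXO1, FANCD2, FANCI, UBE2T, BRIP1, CHEK1, ATM, ATR and RAD50, and the 3 lowest and 3 highest log2 differences with MS177 or MS8815 against DMSO. For other compounds it names the called genes, up to 10, and for the remaining comparisons the 3 largest called differences in each direction. Other genes among the 36 were added after their values were seen. Alternatives were the deposited scale, a pseudocount of 5, no filter, quantile scaling, voom on recovered reads, a replicate block, other libraries in the fit, and each library left out. No column was left unused except the repeated MS177-N2 library in the T47D MS177-N1 table, which was counted once, under MS177-N2. Replicate numbers were not treated as pairs. Some genes of the other lists are not reported here.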

Additional observations from a re-analysis of the deposited data

Results flagged for a closer look

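The MS177 response differed between lines by an interaction test. Between BT-549 and T47D, limma called 10 of the 36 genes, each with a higher response in BT-549, against 1.72% of all genes called. The count was 0 with the replicate block, without any 1 of the BT-549 libraries and without either T47D DMSO library. The 3 with the largest difference were BRCA2 (2.93 on the log2 scale), EXO1 (2.89) and RAD54L (2.47). Between T47D-TR and BT-549 it called 31 of the 36, each with a lower response in T47D-TR, against 32.5% of all genes called, and UBE2T (-4.73), BRCA1 (-3.59) and FANCI (-3.45) differed most. The size for UBE2T rests on levels of 0 and 2.267 with MS177 in T47D-TR. No group has 4 or more libraries, so no library was tested as lying apart from its group.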

How the results depend on the processing

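Counts are of the 36 genes called by limma, and where one moved, the cause was not tested. The share of all genes called changed between settings too, so a changed count alone is not a result about the 36. Against DMSO, all libraries of the line gave 31 for MS177 in T47D (18.2% of all genes called) and 10 in BT-549 (30.9%). They gave 0 for MS177-N1 in T47D-TR (0.0333%) and 0 for MS8815 (0.0789%). MS177-N1 in T47D-TR gave 5 with no filter. MS8815 gave 2 on the deposited log2 values, 2 with a pseudocount of 5, 0 with no filter and 3 with quantile scaling. With the libraries of the 2 compounds alone, MS177 in T47D gave 0 against MS177-N1, 0 against MS177-N2 and 0 against C24, and in BT-549 gave 2 against MS177-N1. Quantile scaling gave 14 for MS177 against MS177-N2 in BT-549 and 1 for T47D-TR against T47D.

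Replicate numbers are shared but the labels give no pairing. With the replicate block, MS177 against DMSO gave 23 in T47D (5.33% of all genes called) and 1 in BT-549 (17.9%). MS177-N1 gave 3 in T47D-TR (13.1%) and 4 in BT-549 (17%), and the response of BT-549 against T47D gave 0 (0%). In T47D-TR with MS177 the block left 32 lower and 0 higher, so PALB2 and RAD50 were no longer called. No block was possible against DMSO at 30 h or for MS177-N1 in T47D. A crossed replicate block was chosen after seeing the data, where same-numbered libraries deviated in opposite directions. It gave 26 for MS177 in T47D (10.6% of all genes called) and 0 for C24 in T47D-TR (0.0351%). In BT-549 it gave 32 for MS177 (60.1%), 8 for MS177-N2 (30.3%) and 5 for C24 (15.9%).

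Leaving out each library against DMSO gave 0 to 36 for MS177, 0 to 4 for MS177-N2 and 0 to 1 for C24 in T47D, 30 to 33 for MS177 and 0 to 7 for MS177-N1 in T47D-TR, 1 to 9 for MS177 and 0 to 1 for MS177-N2 in BT-549, and 0 to 24 for MS8815, 0 to 27 for MS8815-N and 0 to 9 for EPZ-6438. Between compounds, MS177 gave 33 to 36 against MS177-N1 and 6 to 36 against MS177-N2 and C24 in T47D, 28 to 33 in T47D-TR, and 2 to 8, 2 to 10 and 2 to 5 in BT-549, and MS8815 gave 0 to 23 against MS8815-N. Between lines they gave 0 to 15 for T47D-TR against T47D, 0 to 34 for BT-549 against T47D and 28 to 32 for T47D-TR against BT-549.

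Leaving out each library changed the sign of 9 log2 differences that were not called. With MS177 in T47D, ATR ran from -1.76 to 0.06 and PALB2 from -0.92 to 0.08, the highest without MS177 replicate 1. ATM ran from -1.55 to 0.14 in T47D-TR, the highest without MS177 replicate 2. In BT-549, UBE2T ran from -0.44 to 0.03 and ATM from -0.02 to 0.39. With MS8815, RAD51AP1 ran from -1.16 to 1.10 (0.12 without DMSO replicate 4, 0.06 on the deposited scale), UBE2T from -0.44 to 0.78 (-0.18 without DMSO replicate 4), RAD50 from -0.34 to 0.45 and FANCL from -0.29 to 0.49 (-0.02 without DMSO replicate 3), each lowest without MS8815 replicate 1.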

Other observations

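Other DNA repair pathways were followed with MS177 in the same libraries, and the genes named here were picked after their values were seen. In T47D-TR, 9 of 19 base excision repair genes fell and 2 rose (median -0.55), where 54.6% of all genes were called. The glycosylase NEIL3 fell from 281.8 ± 20.41 to 15.77 ± 2.602 normalized counts (SD, n = 2), DNA ligase LIG1 from 654.5 ± 75.88 to 64.38 ± 12.77 and PARP1 from 7085 ± 260.2 to 1734 ± 43.01. In BT-549, where 24% of all genes were called, 3 of 19 fell and 1 rose, and the 3 were NEIL3 (1.85-fold), LIG1 (1.52-fold) and PARP1 (1.38-fold). In T47D none was called and the same 3 stood 5.98-fold, 4.31-fold and 2.27-fold below DMSO.

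In T47D-TR, 3 of 12 end joining genes fell and 3 rose (median -0.10), near the share of all genes called. PRKDC, the catalytic subunit of the DNA-dependent kinase, fell 2.31-fold, and LIG4, the ligase of end joining, rose from 150.9 ± 0.76 to 457.5 ± 10.8. LIG4 (1.45-fold) and the polymerase POLL (1.47-fold) also rose in BT-549, where 2 of 15 rose and 1 fell. Of 18 nucleotide excision repair genes, 4 fell and 5 rose in T47D-TR and 1 fell and 4 rose in BT-549, with medians of -0.09 and 0.20, shares near those of all genes.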
